A study of Homo sapiens with 5 samples.

Results

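Molecular chaperones of the HSP70, HSP90, HSP110, small heat shock, J-domain (DNAJ) and CCT families were examined in HaCaT keratinocytes with and without knockdown of AHNAK. HaCaT is an established, immortal human keratinocyte line, and AHNAK is a very large scaffold protein of the cell membrane and cytoplasm. The data were 5 RNA-seq libraries, 2 labelled NC with the genotype control and 3 labelled KD with the genotype AHNAK knockdown. All were grown in the same serum-containing medium, and the labels name no agent beyond the knockdown. The samples are called si in the labels' short names, while the design text of the series speaks of a knockout. Whether the replicates came from separate cultures is not stated, so p-values here reflect the spread among these 5 samples alone, and that spread may be technical.

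Members were taken by gene symbol: rows beginning with HSPA, HSPB, HSPD, HSPE, HSPH, HSP90A, DNAJA, DNAJB, DNAJC or CCT with a digit, and TCP1, if their mean FPKM over the 5 libraries reached 1. FPKM is the number of fragments scaled to transcript length and to the mapped fragments of the library, so levels of different genes are compared per length. Of 97 rows with these prefixes, 61 were members, among 12196 genes of that level and 27933 rows in all. The rest were 11 rows between 0 and 1 FPKM, 9 rows at 0 in every library, 6 pseudogenes, 5 antisense rows, and 5 rows left out by name (HSPA5, DNAJB9, DNAJB11, DNAJC3 and HSPBAP1). The members were 8 HSP70 genes, HSPH1, 2 HSP90 genes, 5 small heat shock genes, HSPD1 and HSPE1, 4 DNAJA, 7 DNAJB and 22 DNAJC genes, 9 CCT genes, and HSPBP1, which carries the HSPB prefix but is a cofactor of HSP70. Just inside the limit were HSPB3 and HSPB9, at means of 1.28 and 1.33 FPKM, and just outside it HSPA1B and DNAJC28, at 0.764 and 0.651 FPKM. HSPB3 and HSPB9 averaged under 1 FPKM in the controls and passed through the knockdown libraries, so for them a difference was built into the limit.

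As background, HSP70 proteins bind short hydrophobic stretches of unfolded clients in a cycle driven by ATP. J-domain proteins deliver clients and trigger the ATPase, and exchange factors such as HSPH1 and HSPBP1 release the nucleotide. HSP90 takes over later folding intermediates, small heat shock proteins hold unfolding proteins without ATP, and the CCT ring folds actin and tubulin. Not every member works in the cytosol. From general knowledge, 8 of the 61 act in mitochondria (HSPA9, HSPD1, HSPE1, DNAJA3, DNAJC11, DNAJC15, DNAJC19 and DNAJC30) and 9 in or at the endoplasmic reticulum (HSPA13, DNAJB12, DNAJB14, DNAJC1, DNAJC10, DNAJC14, DNAJC16, DNAJC18 and DNAJC25), so the name cytosolic chaperones covers the list only in part.

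Many heat shock genes are switched on by HSF1, a transcription factor that binds inverted repeats of the unit GAA. The sites below are a selection of such units in member promoters, shown for the genes with a run of 3 units and for small heat shock genes. The 250 bases before the start were available for 56 of the 61 members (RefSeq, GRCh38.p14) and were searched for GAANNTTC and TTCNNGAA, each of which reads the same on both strands. At least 1 such pair was found in 9 of the 56 (16.1%), against 8.49% of the promoters of tested genes and 11.7% of all promoters. The run of 3 units, GAANNTTCNNGAA or its reverse complement TTCNNGAANNTTC, contains 2 overlapping pairs, and it was found in 2 of the 56 (3.57%), HSPA8 and DNAJB6, against 0.243% of tested and 0.439% of all promoters. Each stretch has 30 bases, and capitals mark the units.
HSPA8, 230 bases before the start (chr11:123062345-123062374, minus strand): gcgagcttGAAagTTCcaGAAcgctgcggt
HSPA8, 55 bases before the start (chr11:123062170-123062199, minus strand): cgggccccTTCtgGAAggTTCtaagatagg
DNAJB6, 131 bases before the start (chr7:157336865-157336894, plus strand): agagccgaGAAccTTCgcGAAggtggggcg
HSPB8, 88 bases before the start (chr12:119178832-119178861, plus strand): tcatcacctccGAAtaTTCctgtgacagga
HSPB3, 242 bases before the start (chr5:54455449-54455478, plus strand): cactctctTTCttGAAgtaagcaaggcaga
HSPB1, 182 bases before the start (chr7:76302480-76302509, plus strand): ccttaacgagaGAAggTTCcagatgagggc
HSPA8 and DNAJB6 carry the run of 3 units, and HSPB8, HSPB3 and HSPB1 a single pair. A single pair was also found in CCT6B, DNAJA1, DNAJC15 and TCP1, whose sites are not shown. A match is a description of letters in this window and does not show that a factor binds there. Only 1 start per gene symbol was searched. Genes without a match, HSP90AA1 and DNAJB1 among them, may therefore have such units before another start.

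The libraries were first checked against their labels. AHNAK stood at 205 and 242 FPKM in control and 114, 69.6 and 115 FPKM in the knockdown libraries in order, so every knockdown library lay below both controls. Its log2 difference was -1.19 (95% confidence interval -1.77 to -0.61) with a limma adjusted p of 0.372. All 12 keratinocyte markers of a fixed list were expressed, with summed levels of 6605 to 8190 FPKM in the controls and 4390 to 6118 FPKM in the knockdown libraries. Summed levels were at most 10.2 FPKM for fibroblast, 3.62 for melanocyte, 1.25 for leukocyte and 2.98 for endothelial markers, and the melanocyte gene TYR was at 0 throughout. Fibroblast markers, 3 of 8 of them at 1 FPKM or more, summed to 3.30 to 5.02 FPKM in controls and 6.12 to 10.2 FPKM in knockdown libraries. The part of these marker differences in the results below was not tested. From shared steps among low values, control replicate 1 and knockdown replicates 1 and 3 form a set A, and control replicate 2 and knockdown replicate 2 a set B, which no label describes. Each set holds both groups, and differences within sets are given beside those that matter, though deviations from the group means did not follow the sets. Over all genes those of control replicate 1 correlated at -0.40 with knockdown replicate 3 of the same set and at 0.58 with knockdown replicate 2 of the other. Deviations of knockdown replicate 3 followed GC content with a Spearman's rho of -0.549 across 11768 genes and those of knockdown replicate 1 with 0.605, so some values are also given corrected for GC content and length.

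The chaperones as a whole differed little between knockdown and control. Differences are knockdown minus control in log2(FPKM + 0.5), tested with limma, and p-values were adjusted with the Benjamini-Hochberg method over all 12196 genes. None of the 61 members passed an adjusted p of 0.05, where the background was 0% of all genes (limma, 0 called), and the smallest adjusted p of a member was 0.387. At an adjusted p of 0.1, 0.0082% of all genes and no member passed. The median difference was 0.02 over the members and 0.0070 over all genes. It was 0.05 within set A and -0.05 within set B. An absolute difference under 0.3 was found for 51 members, or 83.6%, against 75.2% of all genes. Members in which every knockdown library exceeded both controls numbered 11 (18.0%), against a background of 16.2%, and those in which every knockdown library lay lower numbered 6 (9.84%), against 15.8%. Groups without overlap in either direction made up 32% of all genes. Higher fitted values were seen for 35 members and lower for 26, and after rescaling the libraries to an equal FPKM sum 26 were higher and 35 lower. Corrected for GC content and length, 28 were higher and 33 lower, with a median of -0.01. An unadjusted limma p under 0.05 was reached by 5 members (8.20%), all higher in knockdown, where the background is 6.22% for higher and 11.7% for either direction. These 5 were HSPB3, HSPB8, HSPB9, HSPD1 and DNAJC30. HSPB3 and HSPB9 passed the limit of 1 FPKM through the knockdown libraries. Both are among these 5 and among the 11 members with every knockdown library higher, so neither count is read as a result. With the library set as a term, 828 of all 12196 genes had an unadjusted limma p under 0.05. Of the 61 members 3 did, HSPB3, HSPB8 and HSPB9. HSPD1 then had an unadjusted limma p of 0.0713 and DNAJC30 of 0.0760. Without control replicate 1 only HSPB9 was under 0.05, and without control replicate 2 only HSPB3 and HSPB8. With values corrected for GC content and length, 6 members had an unadjusted limma p under 0.05, where the background is 18.2%: DNAJC30, HSPB8, HSPB9 and HSPD1, and, lower in knockdown, DNAJC9 and DNAJC11.

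**Figure D1:**
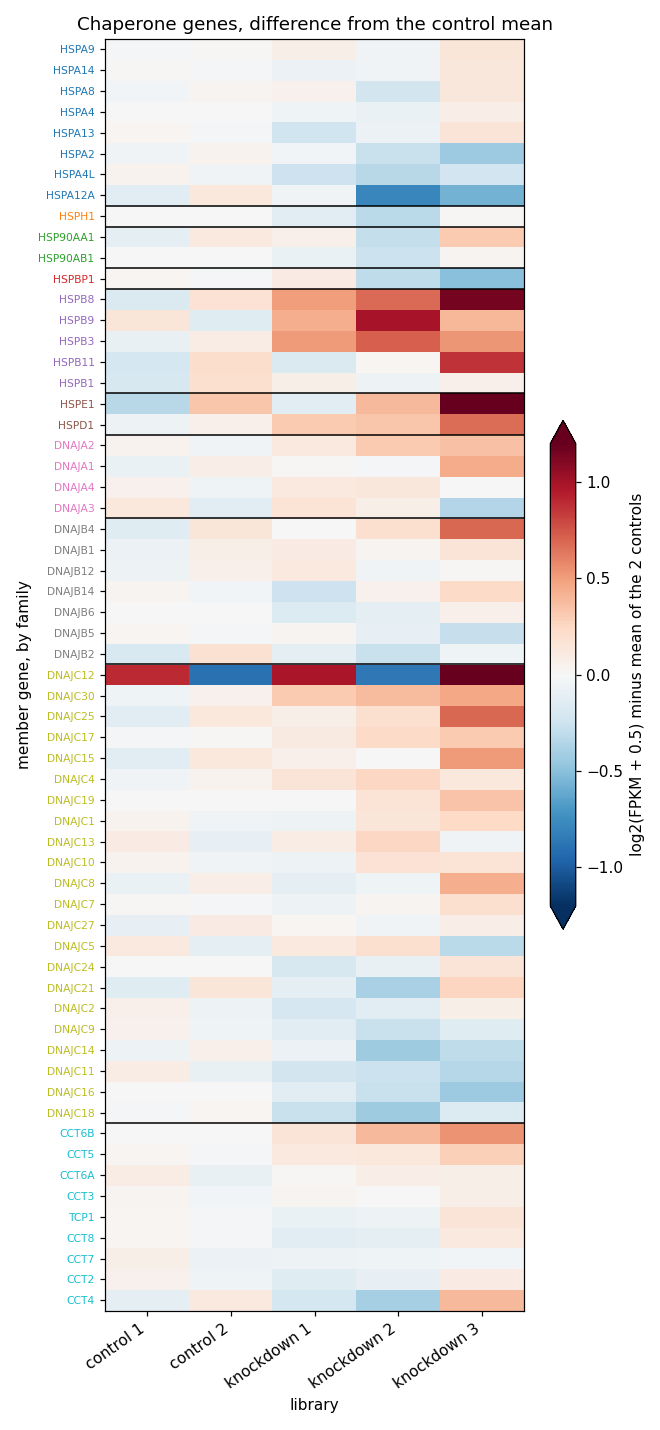
Heat map of the 61 members (rows, by family, symbols coloured by family) in the 5 libraries (columns). Colour is log2(FPKM + 0.5) minus the mean of the 2 controls, and the scale ends at 1.2 in each direction, beyond which colours no longer change. Most rows are pale, HSPB8, HSPB9 and HSPB3 are red in all 3 knockdown libraries, DNAJC12 separates set A from set B, and 37 of the 61 members are highest in knockdown replicate 3.

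Of the 61 members, 37 (60.7%) had their highest value in knockdown replicate 3, against 30.04% of all tested genes. The median deviation of the members from their mean over the libraries was 0.12 in knockdown replicate 3, -0.06 in knockdown replicate 2, and between -0.02 and -0.0039 in the other 3. Without knockdown replicate 3 the median difference of the members was -0.01, with 28 members higher. The median spread of a member within groups was 0.13 on the log2 scale, against 0.18 over all genes. Together the 61 members made up between 1.06% (knockdown replicate 2) and 1.16% (control replicate 2) of all FPKM. In knockdown replicate 3 the share was 1.15%. The FPKM sum of that library, 420541, was the highest, against 374215 to 391071 in the other libraries.

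The 3 most abundant HSP70 genes among the members, HSPA8, HSPA9 and HSPA4, had small differences and intervals that include 0. HSPA8, the constitutive cytosolic HSP70, was at 638 and 670 FPKM in control and 677, 560 and 717 FPKM in the knockdown libraries. The knockdown values lie on both sides of the controls, and the difference was -0.01 (95% confidence interval -0.38 to 0.35), with set A at 0.13 and set B at -0.26. HSPA9, the mitochondrial HSP70, was at 104 and 106 FPKM against 111, 102 and 116 FPKM, a difference of 0.06. HSPA4, an exchange factor of the HSP110 type, stood at 56.1 and 56.0 FPKM against 54.0, 52.8 and 59.2 FPKM. Its groups overlapped, and its interval was -0.31 to 0.28. HSPA14, which works at the ribosome, differed by 0.0064, and HSPA13 of the endoplasmic reticulum by -0.05.

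Lower values in knockdown were found for some of the less abundant HSP70 genes. HSPA4L, a relative of HSPA4, was at 5.15 and 4.82 FPKM in control and 4.12, 3.86 and 4.17 FPKM in knockdown. All knockdown libraries lay below the controls, with a difference of -0.27 (SE 0.13, limma adjusted p = 0.471), -0.28 within set A and -0.29 within B. HSPA12A, a distant member of the family, was at 2.62 and 3.20 FPKM against 2.80, 1.47 and 1.80 FPKM. Knockdown replicate 1 lay between the controls, and its difference was -0.18 within set A and -0.91 within B. HSPA2 differed by -0.24 with overlapping groups. In the family 6 of 8 genes were lower and the median was -0.04, against 0.0070 for all genes, of which 51.3% were higher. The family median was -0.12 after quantile normalization and also without knockdown replicate 3. Corrected for GC content and length it was -0.10, with 1 gene higher and 7 lower. It was -0.02 with equal medians, and -0.02 without knockdown replicate 2, with 4 genes higher and 4 lower in that last fit.

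The strongly heat-inducible HSP70 genes could not be assessed. HSPA1A (ENSG00000204389.9, chromosome 6, 31815464 to 31817946, plus strand, GRCh38) was listed at 0.474 and 0.324 FPKM in control and 0.883, 0.803 and 0.283 FPKM in knockdown. HSPA1B (ENSG00000204388.6, chromosome 6, 31827735 to 31830255, plus strand) was at 0.649 and 0.635 FPKM against 0.865, 0.908 and 0.760 FPKM. Both lay under the limit of 1 FPKM and were not tested. They are near-identical copies whose reads may be divided between them. They also lie in a stretch of chromosome 6, from 29 to 33 Mb, in which 140 of 145 protein-coding genes (96.6%) averaged under 2 FPKM, against 51.8% on the rest of that chromosome. Their low values are therefore not read as their level in the cells. HSPA6 averaged 0.0652 FPKM and was not tested.

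The HSP90 genes, HSPH1 and HSPBP1 had overlapping groups. HSP90AB1, the constitutive cytosolic HSP90, was at 581 and 576 FPKM in control and 548, 485 and 592 FPKM in knockdown. Knockdown replicate 2 was lowest and replicate 3 highest, and the difference was -0.10 (95% confidence interval -0.43 to 0.23). HSP90AA1, the inducible form, was at 211 and 248 FPKM against 239, 187 and 285 FPKM. Its difference was 0.03, made of 0.30 within set A and -0.40 within B. The constitutive form exceeded the inducible form in every library, by 2.08-fold to 2.75-fold in FPKM. HSPH1, which releases nucleotide from HSP70, was at 34.0 and 34.3 FPKM against 30.9, 27.1 and 34.4 FPKM, a difference of -0.15 with overlapping groups. HSPBP1, an inhibitor of the HSP70 ATPase cycle, was at 40.7 and 39.7 FPKM against 43.2, 32.4 and 28.2 FPKM, a difference of -0.24, with knockdown replicate 1 above both controls.

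The small heat shock genes ranged from the most abundant member to the scarcest ones, and none passed (limma, smallest adjusted p = 0.387). HSPB1 (ENSG00000106211.8, chromosome 7, 76302544 to 76304295, plus strand), known as HSP27, was the most abundant of all members at a mean of 815 FPKM. It stood at 702 and 920 FPKM in control and 846, 770 and 838 FPKM in knockdown, so that all knockdown values lay between the controls. Its difference was 0.02 (95% confidence interval -0.35 to 0.40).

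HSPB8 (ENSG00000152137.6, chromosome 12, 119178642 to 119221131, plus strand), which acts with the exchange factor BAG3 in selective autophagy, was at 0.927 and 1.31 FPKM in control and 1.78, 2.08 and 3.05 FPKM in knockdown. Every knockdown library was above both controls. Controls averaged 1.12 ± 0.27 FPKM (SD, n = 2) and knockdown libraries 2.30 ± 0.67 FPKM (SD, n = 3), which is 2.06 times as much. The difference was 0.78 (SE 0.23, 95% confidence interval 0.22 to 1.33, limma unadjusted p = 0.0130, adjusted p = 0.387), with 0.99 within set A and 0.51 within B. Corrected for GC content and length it was 0.75.

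HSPB3 (ENSG00000169271.2, chromosome 5, 54455601 to 54456384, plus strand), best known from muscle, was at 0.776 and 0.950 FPKM in control and 1.44, 1.74 and 1.47 FPKM in knockdown. Its groups did not overlap, and the difference was 0.59 (SE 0.16, limma unadjusted p = 0.00929, adjusted p = 0.387), 0.62 within set A and 0.63 within B. HSPB9 (ENSG00000260325.1, chromosome 17, 42121431 to 42123352, plus strand), a testis-type small heat shock gene, was at 1.02 and 0.745 FPKM against 1.36, 2.22 and 1.31 FPKM. Its difference was 0.60 (SE 0.23, limma unadjusted p = 0.0359, adjusted p = 0.406), 0.27 within set A and 1.13 within B. HSPB11, whose product is a part of the intraflagellar transport machinery, was at 27.0 and 36.5 FPKM against 27.8, 31.96 and 57.7 FPKM. Only knockdown replicate 3 exceeded the controls there, and the difference was 0.24.

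The median of the 5 small heat shock genes was 0.59, which is the value of HSPB3. HSPB3 and HSPB9 passed the limit of 1 FPKM through the knockdown libraries, so neither this median nor a count of higher members is read as a result. The 2 whose mean reached 5 FPKM, HSPB1 and HSPB11, had a median of 0.13. The values of HSPB3, HSPB8 and HSPB9 are low and their depth is unknown. With limma array weights, HSPB3 (0.69, adjusted p = 0.0363), HSPB8 (0.69, 0.0418) and HSPB9 (0.89, 0.0398) passed, where for HSPB3 and HSPB9 the limit had already selected on the knockdown values. Over the other alternatives their adjusted p reached 0.974, 0.926 and 0.974. Those weights were 3.98 for knockdown replicate 2 and 0.257 for knockdown replicate 3. With them 1428 of all 12196 genes passed, and 4 of the 61 members, so passing there does not set these genes apart.

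**Figure D2:**
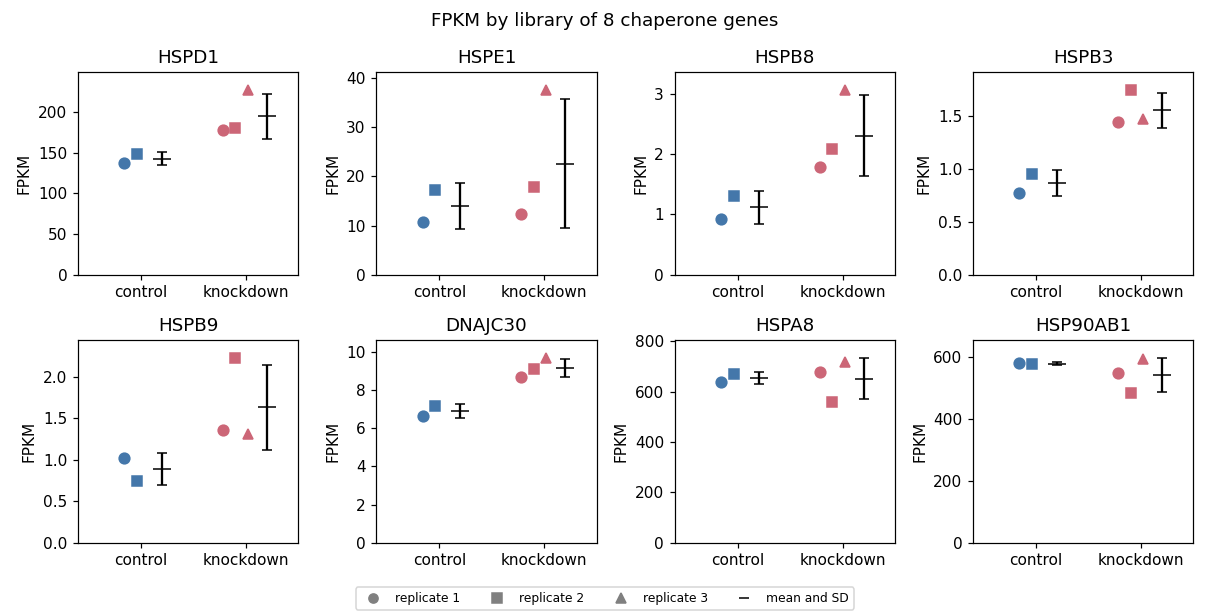
FPKM of 8 members by library, controls in blue and knockdown in red, with a marker shape for each replicate number and a bar for the mean and SD of each group (n = 2 and n = 3). In HSPD1, HSPB8, HSPB3, HSPB9 and DNAJC30 the groups do not overlap, whereas HSPE1, HSPA8 and HSP90AB1 overlap, and the high HSPE1 mean rests on knockdown replicate 3 at 37.5 FPKM.

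The mitochondrial chaperonin HSPD1 was the abundant member with the highest difference. HSPD1 (ENSG00000144381.16, chromosome 2, 197486581 to 197516737, minus strand), known as HSP60, forms the folding chamber of the mitochondrial matrix. It was at 137 and 148 FPKM in control and 178, 180.3 and 227 FPKM in knockdown. All knockdown libraries were higher than both controls, with control libraries at 143 ± 8.05 FPKM (SD, n = 2) and knockdown at 195 ± 27.5 FPKM (SD, n = 3), 1.36 times as much. The difference was 0.44 (SE 0.16, 95% confidence interval 0.07 to 0.81, limma unadjusted p = 0.0266, adjusted p = 0.395). It was 0.55 in set A, 0.28 in set B, 0.35 after correction for GC content and length, and 0.33 without knockdown replicate 3. Of the 11 members with a mean of at least 100 FPKM, the other 10 had absolute differences under 0.3.

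HSPE1 (ENSG00000115541.10, chromosome 2, 197499994 to 197503457, plus strand), the lid of the same chamber known as HSP10, did not show the same pattern clearly. The pair is transcribed in opposite directions, with 104 bases between the RefSeq starts at 197500274 and 197500379 (GRCh38.p14), and the stretch upstream of either gene held none of the paired GAA units. HSPE1 was at 10.7 and 17.3 FPKM in control and 12.4, 17.9 and 37.5 FPKM in knockdown. Within each set the knockdown value was above its control, by 0.99 within set A and 0.05 within B. Across sets the groups overlapped, and the difference was 0.56 (SE 0.44, limma adjusted p = 0.637). Without knockdown replicate 3 it was 0.13. HSPD1 exceeded HSPE1 by 6.05-fold to 14.3-fold in FPKM, lowest in knockdown replicate 3. The annotated spans of these genes share 3464 bases on opposite strands and strand-specific counting is not stated, so reads there cannot be told apart. The annotation also lists 17 pseudogenes named for HSPD1 and 26 for HSPE1, which can take up reads.

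The J-domain proteins, the cochaperones that set the HSP70 cycle in motion, spread around 0. Over the 33 DNAJ members the median difference was 0.06, with 20 higher and 13 lower, and 30 had an absolute difference under 0.3. Without knockdown replicate 3 the median was 0.03, with 17 higher. The DNAJA genes, the closest relatives of bacterial DnaJ, had a median of 0.11. DNAJA1 was at 58.9 and 66.2 FPKM in control and 63.2, 61.5 and 85.1 FPKM in knockdown, where only replicate 3 was above both controls, and its difference was 0.15. DNAJA2 was at 29.9 and 28.2 FPKM against 31.5, 36.3 and 37.2 FPKM. All knockdown libraries of DNAJA2 were above the controls, with a difference of 0.26 (limma adjusted p = 0.489).

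DNAJB genes showed no separation of the groups in any of the 7 members, where the background is 32% of all genes. With so few genes this count is not read as a trait of the class. DNAJB1, the heat-inducible HSP40, was at 61.7 and 68.5 FPKM in control and 69.8, 66.7 and 72.6 FPKM in knockdown, a difference of 0.10 (95% confidence interval -0.20 to 0.40). DNAJB6, a suppressor of aggregation, was at 32.3 and 32.5 FPKM against 28.8, 29.8 and 33.7 FPKM, a difference of -0.08. The groups of DNAJB6 overlapped, as did those of HSPA8, the other member with the run of 3 units. A link between these units and the differences was not tested. The range over the DNAJB genes ran from -0.14 for DNAJB2 to 0.29 for DNAJB4.

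The DNAJC genes are the most diverse class and held the widest differences among J-domain proteins. DNAJC30 (ENSG00000176410.7, chromosome 7, 73680969 to 73683453, minus strand), a mitochondrial protein linked to turnover of complex I, was at 6.67 and 7.16 FPKM in control and 8.71, 9.12 and 9.69 FPKM in knockdown. Its groups were well apart, at 6.91 ± 0.35 FPKM (SD, n = 2) and 9.17 ± 0.49 FPKM (SD, n = 3). The difference was 0.38 (SE 0.13, limma unadjusted p = 0.0192, adjusted p = 0.393), 0.43 within set A and 0.33 within B. With array weights it was 0.37 and passed (limma adjusted p = 0.0432), as did 1428 of all 12196 genes. With the library set as a term its limma adjusted p was 0.769. The gene shares 429 bases with BUD23 on the opposite strand, which averaged 39.2 FPKM.

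In 5 of the 22 DNAJC genes every knockdown library lay below both controls and in 4 above both, where the background is 15.8% and 16.2% of all genes. DNAJC11, a protein of mitochondrial membrane organisation, was at 16.8 and 14.7 FPKM in control and 13.4, 13.1 and 12.3 FPKM in knockdown, a difference of -0.27 (limma adjusted p = 0.471). DNAJC16 was at 3.95 and 3.97 FPKM against 3.59, 3.19 and 2.79 FPKM, a difference of -0.28. DNAJC18 differed by -0.28 and DNAJC14 by -0.27. DNAJC9, a histone chaperone that also recruits HSP70, was at 47.1 and 44.0 FPKM against 41.6, 37.7 and 41.1 FPKM, a difference of -0.18. DNAJC7, which passes clients between HSP70 and HSP90, differed by 0.06, and DNAJC5, the cysteine string protein of vesicle exocytosis, by -0.0025 (set A -0.22, set B 0.31).

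DNAJC12 followed the sets of libraries and not the groups. It was at 2.42, 2.59 and 4.22 FPKM in control replicate 1 and knockdown replicates 1 and 3, and at 0.341 and 0.366 FPKM in control replicate 2 and knockdown replicate 2. The 2 sets do not overlap, while control and knockdown do. Control and knockdown do not overlap in 32% of all genes, and the share of genes that separate by set was not determined. DNAJC12 reached the limit of 1 FPKM through the set A libraries, so its separation by set is not read as a trait of this gene. Its knockdown difference was 0.39 within set A and 0.04 within B. The pooled difference of 0.57 had a 95% confidence interval of -1.30 to 2.45, the widest among the members. The gene was picked out after its values were seen.

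**Figure D3:**
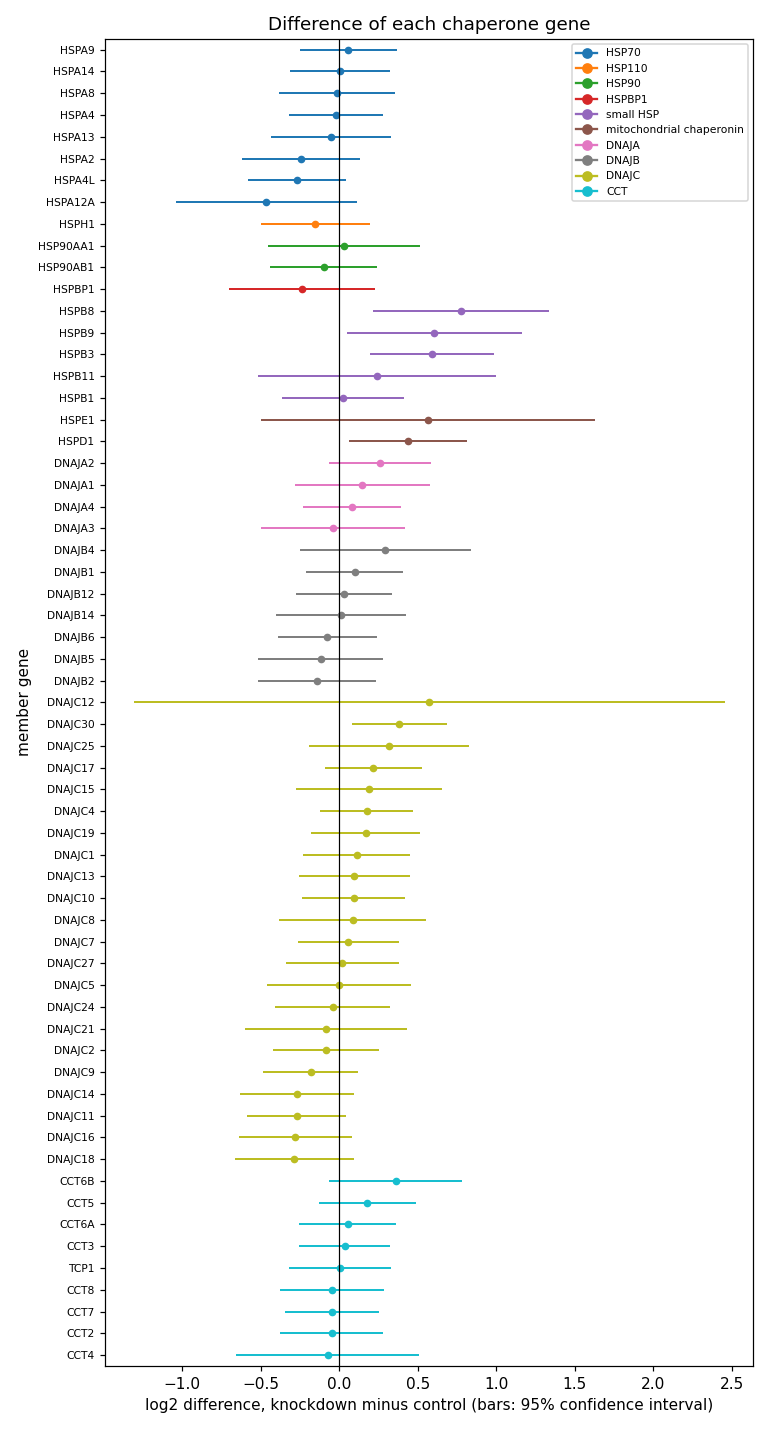
Log2 difference, knockdown minus control, of each of the 61 members (points, coloured by family) with its 95% confidence interval (bars). HSPB8, HSPB9, HSPB3, HSPD1 and DNAJC30 have intervals above 0 before adjustment, and DNAJC12 has the widest interval, from -1.30 to 2.45.

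Subunits of the CCT ring differed little. The ring, also called TRiC, is built from 8 different subunits, TCP1 and CCT2 to CCT8 with CCT6A at the sixth place, and it folds actins and tubulins. In FPKM, TCP1 was the lowest subunit and CCT7 the highest in all 5 libraries, and the highest exceeded the lowest by 2.39-fold to 2.81-fold. TCP1 was at 71.7 and 69.7 FPKM in control and 66.8, 67.6 and 78.6 FPKM in knockdown, a difference of 0.0026 (95% confidence interval -0.32 to 0.32). CCT7 was at 201 and 184 FPKM against 184, 186 and 188 FPKM, a difference of -0.05. CCT3 varied least in the ring, between 139 and 149.7 FPKM over all libraries, and differed by 0.03.

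CCT5 was the ring subunit whose groups did not overlap. It was at 124 and 119 FPKM in control and 132, 133 and 148 FPKM in knockdown, a difference of 0.18 (SE 0.13, limma adjusted p = 0.606), 0.17 within set A and 0.16 within B. CCT4 varied most in the ring, at 120 and 141 FPKM against 112, 98.8 and 169.9 FPKM. Its difference of -0.07 joined 0.21 within set A and -0.51 within B. CCT2, CCT6A and CCT8 differed by -0.05, 0.05 and -0.05, with overlapping groups. CCT6B, a testis-type copy of CCT6A outside the common ring, was at 1.07 and 1.06 FPKM against 1.24, 1.54 and 1.77 FPKM, a difference of 0.36 (limma adjusted p = 0.478). The 9 genes had a median of 0.0026, and 5 of them were higher. After rescaling to an equal FPKM sum, quantile normalization, or correction for GC content and length 2 were higher, with medians of -0.05, -0.03 and -0.09.

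Substrates of the ring were also examined. Of 14 tested actin, tubulin and cell cycle substrates 13 were lower, with a median of -0.22, and in 9 every knockdown library lay below both controls, where the background is 15.8%. The list was chosen with earlier results of these data known, and 10 of the 14 are tubulin genes. These counts are therefore not read as a result about substrates of the ring. None passed (limma, 0 of 14, smallest adjusted p = 0.379), and 3 had an unadjusted p under 0.05, where 5.48% of all genes were lower at that level. TUBB6, a beta-tubulin, was at 64.1 and 54.3 FPKM in control and 44.7, 34.5 and 27.7 FPKM in knockdown, a difference of -0.75 (SE 0.21). TUBB2A was at 5.76 and 4.48 FPKM against 3.22, 2.95 and 2.38 FPKM, a difference of -0.74 (limma adjusted p = 0.379), and TUBB3 differed by -0.54.

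The abundant substrates showed smaller differences. TUBB4B was at 926 and 900.3 FPKM in control and 859, 689 and 689 FPKM in knockdown, a difference of -0.30. ACTB was at 1647 and 1622 FPKM against 1735, 1551 and 1602 FPKM, a difference of -0.0062 with overlapping groups. The count of lower substrates was 13 with each library sum made equal and with quantile normalization, 12 with equal medians or after GC content and length correction, and 11 without knockdown replicate 3. Tubulin genes are close copies whose reads may be divided among them, and TUBB, at a mean of 1.41 FPKM, lies in the stretch of chromosome 6 described above.

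**Figure D4:**
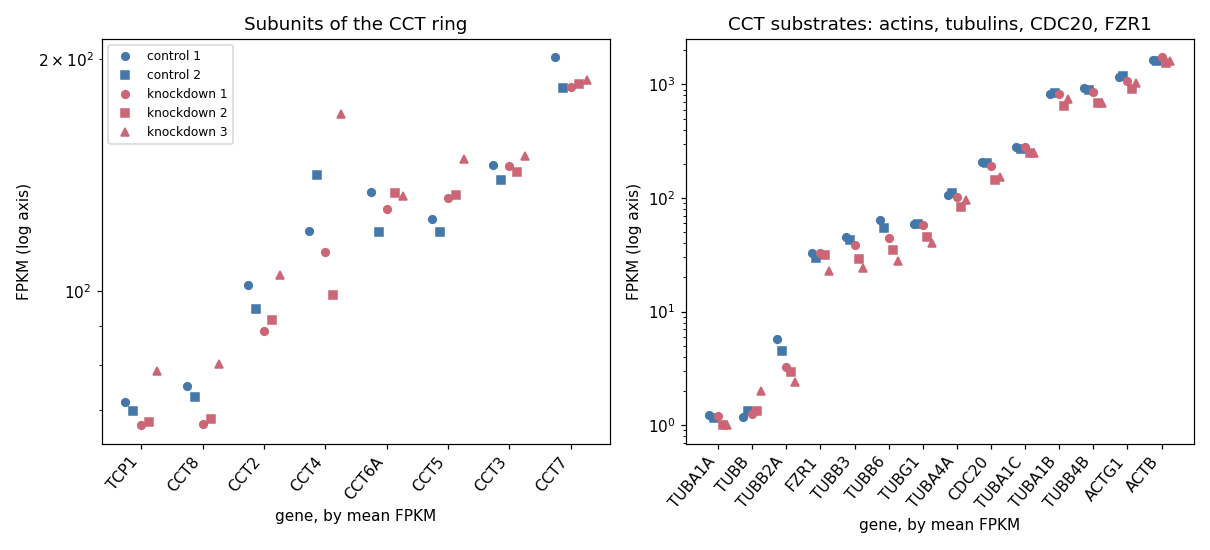
FPKM (log axes) in each library of the 8 ring subunits (left) and 14 substrates of the CCT ring (right), ordered by mean FPKM, with controls in blue and knockdown in red. Ring subunits mix both colours, apart from CCT5 with all knockdown values higher, while the red points of TUBB6, TUBB3, TUBB2A and TUBB4B all lie below the blue ones.

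Cofactors and regulators were also examined by fixed lists, and none of their genes passed over all genes (limma, 0 called in each direction). HSF1, the main heat shock factor, was at 88.7 and 71.5 FPKM in control and 90.0, 95.5 and 62.2 FPKM in knockdown, with overlapping groups. Its difference was 0.03, with -0.24 within set A and 0.41 within B, and HSF2 differed by 0.07. Of the 8 heat shock factors and regulators 6 were higher and 2 lower (median 0.08). The 3 of smallest p were HSF4 (0.27), AKT1S1 (0.25) and IER5 (-0.12).

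Among 14 tested cochaperones and exchange factors of HSP70, HSPBP1 and DNAJC7 included, 8 were higher and 6 lower (median 0.05). BAG1, an exchange factor that links HSP70 to the proteasome, was at 19.3 and 17.6 FPKM in control and 21.9, 27.3 and 24.3 FPKM in knockdown, a difference of 0.40 (SE 0.14, limma adjusted p = 0.395). SIL1, the exchange factor of the endoplasmic reticulum, and SGTA differed by 0.28 and 0.21. Of 25 tested genes listed as HSP90 cochaperones 17 were higher and 8 lower (median 0.11), and without knockdown replicate 3 it was 14 and 11 (median 0.03). AHSA1, which stimulates the HSP90 ATPase, was at 79.4 and 77.1 FPKM against 94.0, 94.8 and 98.9 FPKM. All knockdown libraries of AHSA1 were higher, with a difference of 0.29 (limma unadjusted p = 0.0448, adjusted p = 0.419), 0.28 within set A and 0.30 within B. NUDC differed by 0.29. TSC22D1, which is on the list and in its counts but is not an established HSP90 cochaperone, differed by 0.53.

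A list of heat-induced genes, which shares HSPA4L with the members and AHSA1 with the HSP90 cochaperones, gave 9 higher and 7 lower of 16 tested (median 0.05). RGS2, a regulator of G protein signalling, was at 12.2 and 3.68 FPKM in control and 14.5, 34.2 and 27.3 FPKM in knockdown, a difference of 1.74 (set A 0.69, set B 3.06, limma adjusted p = 0.387). The 13 tested CCT partners had a median of -0.02, with PDCL at -0.26, PFDN1 at -0.25 and TBCE at 0.20. The 14 chaperones of the endoplasmic reticulum had a median of 0.03, with PDIA3 at 0.31, PDIA4 at -0.28 and PDIA6 at 0.21. The 9 mitochondrial chaperones and proteases outside the members had a median of 0.03, with CLPB at -0.28, GRPEL2 at 0.32 and LONP1 at 0.20. The 34 proteasome subunits had a median of 0.04, with 0.17 within set A and -0.12 within B, and PSMC3, PSMB4 and PSMD11 differed by 0.30, 0.20 and 0.15. Several of these small medians rested on knockdown replicate 3. Without it they were 0.02 for the heat shock factors, -0.03 for the HSP70 cochaperones, -0.09 for the CCT partners, -0.03 for the chaperones of the endoplasmic reticulum and -0.04 for the proteasome subunits, with 11 of 34 of the last higher.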

How the data were processed

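The authors deposited FPKM values per gene symbol and library. Per the submitters' processing notes, HISAT2 2.0.1 and StringTie 2.0.6 were used, and GRCh38 and mm9 are named without a role; for annotation and strand the setting is not given in the sources used here. FPKM carry no read totals, so depth is unknown and no count test was run. Genes whose mean FPKM reached 1 were analysed as log2(FPKM + 0.5), which understates changes of low genes. The test was limma 3.58.1 in R 4.3.3 (intensity trend, no covariate, two-sided p, Benjamini-Hochberg threshold 0.05). The step was tested on simulated data with independent normal noise. There it called 6.8% of log2 differences of 0.5 and 82.6% of differences of 1, so most differences near 0.5 were missed. Gene positions, GC content and length (longest transcript) came from GENCODE 29 (GRCh38), matched by symbol for 96.5% of tested genes. Library sets were libraries sharing the most frequent ratio of values under 0.3 FPKM in over 10% of low genes. The GC content and length correction was a loess fit (span 0.3) per library. Members and lists were chosen with earlier results of these data known. Named genes were AHNAK, HSF1, HSF2, a fixed set of 26 chaperones, the 6 members of smallest p in each direction, the members of extreme level or next to the limit, and 3 genes of smallest p per list; others named were chosen after their values were seen, as was the grouping by organelle.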

Additional observations from a re-analysis of the deposited data

How the results depend on the processing

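With limma, 1 gene of all tested passed with a pseudocount of 1, without the intensity trend, with robust eBayes or at an adjusted p of 0.1. With array weights 1428 of all 12196 genes passed, and 4 of the 61 members, so passing there does not set the members apart. Leaving out 1 library gave 0 to 9 genes, the 9 without control replicate 1, and 0 members. The median of the members ran from -0.01 to 0.05 when a library was left out. AHNAK was -0.83 in set A alone, -1.79 in set B alone, -1.55 with array weights (limma adjusted p = 0.0340) and -1.32 to -0.95 when a library was left out. Whether replicate numbers pair the samples is unknown, and only 2 are shared. The correlations of deviations between control and knockdown were -0.06 for number 1 and -0.58 for number 2. Control replicate 1 had 0.58 with knockdown replicate 2 and -0.40 with knockdown replicate 3. With 2 controls the deviations of one are the other's with the sign reversed, so these correlations cannot decide the pairing. With the replicate block, AHNAK was -1.32, the median of the members -0.01, and 0 members passed (limma, 2 with an unadjusted p under 0.05, as had 977 of all 12196 genes). Knockdown replicate 3 has no control of its number, so the differences of this fit equal those of the fit without that library. The p-values do not: without knockdown replicate 3, 1772 genes and 5 members had an unadjusted limma p under 0.05. Over 62 named genes and 1105 alternative fits, 1026 kept direction and side of the threshold, 12 passed only there, and 67 had the opposite sign, as follows; the cause was not tested. With equal medians they were HSPA8 0.0042 and DNAJC5 0.014. With array weights they were HSPA9 -0.019, HSPA14 -0.039, HSP90AA1 -0.22, HSPB1 -0.040, DNAJC5 0.16, TCP1 -0.054 and GRPEL2 -0.11. With equal FPKM sums they were HSPA14 -0.046, HSP90AA1 -0.025, HSPB1 -0.030, TCP1 -0.052, CCT3 -0.020, CCT6A -0.0012 and HSF1 -0.027. With the replicate block they were HSPA14 -0.059, HSP90AA1 -0.11, DNAJA1 -0.0018, DNAJC5 0.16, DNAJC7 -0.011, TCP1 -0.072 and HSF2 -0.036. With a set term they were HSPA14 -0.0033, DNAJC5 0.0089 and TCP1 -0.0098. After GC content and length correction they were HSPA14 -0.0026, HSP90AA1 -0.015, DNAJB6 0.052, DNAJC5 0.096, DNAJC7 -0.014, TCP1 -0.086, CCT3 -0.022, CCT6A -0.025 and HSF2 -0.028. After quantile normalization they were HSP90AA1 -0.039, HSPB1 -0.15, DNAJC5 0.0019, TCP1 -0.019, CCT3 -0.030, CCT6A -0.0031 and HSF1 -0.013. With a library left out, values ran over both signs for HSPA8 -0.086 to 0.092, HSPA4 -0.068 to 0.013, HSPA14 -0.059 to 0.046, HSP90AA1 -0.11 to 0.19, HSPB1 -0.17 to 0.22, DNAJA1 -0.0018 to 0.23, DNAJC5 -0.12 to 0.16, DNAJC7 -0.011 to 0.11, TCP1 -0.072 to 0.044, CCT2 -0.12 to 0.0046, CCT4 -0.30 to 0.086, CCT6A -0.034 to 0.14, CCT7 -0.11 to 0.018, HSF1 -0.13 to 0.22, HSF2 -0.036 to 0.15 and GRPEL2 -0.0057 to 0.64. Depth is unknown, so no counting error can be given for the members under 5 FPKM.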

Other observations

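The 8 mitochondrial members had a median difference of 0.18, with 6 of 8 higher, against 0.01 for the 9 of the endoplasmic reticulum and 0.01 for the other 44. For the mitochondrial members, set A gave 0.29 and set B 0.11, the GC content and length correction 0.11, and the fit without knockdown replicate 3 0.10. Without that library the endoplasmic reticulum median was -0.10 and that of the other 44 was -0.06. The difference between these groups was not tested, and they were formed after values were seen.

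The stretch of chromosome 6 that holds HSPA1A and HSPA1B had a median of 0.0123 FPKM over its 145 protein-coding genes, against 1.71 FPKM over the other 859 of the chromosome. The highest gene in it was at 44.3 FPKM.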
